A study of Homo sapiens with 6 samples.

Results

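Sialyltransferases and glycan sulfotransferases are Golgi enzymes that finish sugar chains: the first cap them with sialic acid, the second add sulfate groups. The genes were chosen by symbol, as the array rows whose single gene symbol starts with ST3GAL, ST6GAL, ST8SIA, CHST, HS3ST, HS6ST, HS2ST or NDST, or is UST. This gave 50 genes, 20 sialyltransferases and 30 sulfotransferases, out of 18417 measured genes. A gene with several rows was represented by its brightest row, judged by the mean of the 6 arrays.

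The RNA came from RD18, an established line of embryonal rhabdomyosarcoma, a childhood tumour with features of immature skeletal muscle. Each of 6 cultures was read on 1 Affymetrix gene array. The derivative NpBI-22, called miR-22 cells here, switches on the microRNA miR-22 when doxycycline is given. It was profiled as 2 induced replicates, after 6 days with 1 µg/ml doxycycline, and as 2 non-induced replicates without it. The derivative NpBI-206AS, an additional control, had 1 induced array with the same doxycycline treatment and 1 non-induced array. All 6 arrays thus share the RD18 background, and every induced array carries doxycycline as well as the product of its construct. The labels do not say what the NpBI-206AS construct expresses, nor whether either line is a single clone. The miR-22 replicates are described by the series as biological.

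Values are log2 expression as deposited, so a difference of 1 is 2-fold. They are comparable between arrays for the same gene but not between genes. MIR22HG, the host gene of miR-22, checked the labels: it read 10.02 and 10.01 in induced and 6.27 and 6.72 in non-induced miR-22 cells, and 6.32 in induced and 6.41 in non-induced NpBI-206AS cells. Among 8 muscle lineage markers, none lay under the array's lower quartile (3.92 to 4.01) on all 6 arrays, and the summed level of the list was 12.13 and 12.19 in induced miR-22 arrays against 12.26 to 12.7 on the other 4. That sum was mostly CHRNA1, which read 11.38 and 11.45 in induced miR-22 arrays. DES, the muscle intermediate filament gene, fell by 1.07 (limma adjusted p = 0.038). The other 7 muscle markers did not pass (limma adjusted p from 0.075 to 0.92) and differed by -1.18 (MYMK) to 0.33 (PAX7). The summed level was 10.71 and 10.64 in induced miR-22 arrays against 10.15 to 10.48 on the other 4 for 5 epithelial markers, 6.53 and 6.42 against 6.24 to 6.34 for 4 blood markers, and 7.96 and 7.8 against 7.53 to 7.75 for 4 neural markers, so all 3 sums were higher in induced miR-22 arrays. For 4 endothelial markers it was 7.87 and 7.84 against 7.83 to 8.1. None of these 17 genes passed. EPCAM and PTPRC were the only ones under the lower quartile on all 6 arrays. The epithelial sum was mostly the keratin gene KRT18, which read 10.56 and 10.48 in induced miR-22 arrays. Between the miR-22 groups KRT18 differed by 0.40 and KRT8 by 0.15, but EPCAM, CDH1 and KRT19 by 0.03, -0.07 and 0.04. Of 5 fibroblast markers 1 rose, THY1, by 1.51 (adjusted p = 0.025), while COL1A1, PDGFRA, COL1A2 and COL3A1 differed by -0.37, -0.07, 0.12 and 0.21. The list's summed level was 12.47 and 12.54 in induced miR-22 arrays against 12.05 to 12.38 on the others. The part of these shifts in the results below was not tested. Both induced miR-22 arrays share a code prefix in the labels that none of the other 4 arrays has, so induction and whatever the prefix stands for cannot be told apart.

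Sialic acid sits at the outer end of N-glycans, mucin-type O-glycans and gangliosides, the sialylated glycolipids of the cell surface. The enzyme families are named for the bond they make: ST3GAL enzymes join sialic acid to galactose through an alpha-2,3 bond, ST6GAL and ST6GALNAC enzymes through alpha-2,6 bonds to galactose or N-acetylgalactosamine, and ST8SIA enzymes to another sialic acid. Sulfate is added by NDST, HS2ST, HS6ST and HS3ST enzymes to heparan sulfate, and by UST and many CHST enzymes to chondroitin and dermatan sulfate. These are the long chains of proteoglycans that hold growth factors at the cell surface. Polysialic acid, a chain made by ST8SIA2 and ST8SIA4, is carried by NCAM1 on developing muscle and nerve.

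The microRNA itself is shown for orientation, with its seed (bases 2 to 8, the part that pairs with targets) in capitals. The labels do not say which arm was meant, so both mature arms are given, from RefSeq (GRCh38.p14, chr17, minus strand).
hsa-miR-22-3p (chr17:1713914-1713935): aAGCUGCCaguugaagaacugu
hsa-miR-22-5p (chr17:1713952-1713973): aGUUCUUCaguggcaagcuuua

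The 3 genes that rose most and 1 that fell, HS3ST3B1, are shown by their start regions, because their differences are among those the results turn on and each has a single window in the RefSeq promoter table (GRCh38.p14, plus strand, 250 bases before to 50 after the gene start, 5′ to 3′). Capitals mark CANNTG, the E-box read by helix-loop-helix factors such as MyoD, searched on both strands.
ST6GALNAC3 (chr1:76074496-76074795): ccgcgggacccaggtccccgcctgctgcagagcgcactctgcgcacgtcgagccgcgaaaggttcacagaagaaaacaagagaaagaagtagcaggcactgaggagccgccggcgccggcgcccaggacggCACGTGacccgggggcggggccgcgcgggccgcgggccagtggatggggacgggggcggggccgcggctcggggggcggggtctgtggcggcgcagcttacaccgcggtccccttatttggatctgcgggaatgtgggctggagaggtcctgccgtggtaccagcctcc
ST6GALNAC5 (chr1:76867230-76867529): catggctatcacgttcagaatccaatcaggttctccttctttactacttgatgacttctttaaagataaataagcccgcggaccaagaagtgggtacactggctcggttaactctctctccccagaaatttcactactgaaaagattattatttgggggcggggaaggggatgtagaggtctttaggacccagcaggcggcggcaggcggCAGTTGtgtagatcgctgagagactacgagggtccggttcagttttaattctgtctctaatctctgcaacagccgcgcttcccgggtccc
UST (chr6:148746780-148747079): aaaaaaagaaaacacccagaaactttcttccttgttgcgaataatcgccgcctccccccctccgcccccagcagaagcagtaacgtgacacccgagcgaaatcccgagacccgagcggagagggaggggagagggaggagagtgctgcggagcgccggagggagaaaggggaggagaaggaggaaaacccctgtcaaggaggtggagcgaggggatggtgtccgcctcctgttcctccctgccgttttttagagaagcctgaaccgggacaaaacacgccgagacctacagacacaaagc
HS3ST3B1 (chr17:14300831-14301130): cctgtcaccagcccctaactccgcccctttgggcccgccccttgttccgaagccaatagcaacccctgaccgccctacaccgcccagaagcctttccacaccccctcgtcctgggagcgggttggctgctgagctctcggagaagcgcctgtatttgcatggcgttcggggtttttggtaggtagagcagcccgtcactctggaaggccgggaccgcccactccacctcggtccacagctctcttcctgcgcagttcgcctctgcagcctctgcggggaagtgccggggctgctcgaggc

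The window of ST6GALNAC3 is 72% G and C and holds 1 E-box, and that of ST6GALNAC5 is 50% G and C and holds 1. No E-box letters were found in the windows of UST (58.7% G and C) or HS3ST3B1 (65.3%). Across all 35116 windows of the table, 68.7% hold at least 1 E-box. The GC box GGGCGG was found 3 times for ST6GALNAC3, 1 time each for ST6GALNAC5 and UST and 5 times for HS3ST3B1, against 45% of all windows with a match. These matches describe the letters only.

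The main comparison set induced against non-induced miR-22 cells. Of the 50 genes, 4 rose and 2 fell at a limma adjusted p under 0.05, adjusted over all 33297 rows. Over all genes, 1.73% rose and 1.53% fell in this comparison. The risen genes were the sialyltransferases ST6GALNAC3, ST6GALNAC5 and ST6GAL1 and the sulfotransferase UST. The fallen genes were the sialyltransferase ST3GAL5 and the heparan sulfate sulfotransferase HS3ST3B1. The other 44 genes differed by -1.0 to 0.87 (adjusted p from 0.066 to 0.99). The median difference was 0.01 over the 50 genes and 0.01 over all genes, and 70% of the 50 lay within 0.25 of 0 against 56.7% of all genes. The changes were thus in a few genes, not in a shift of the families together. Leaving out any single miR-22 array gave 0 calls by limma among the 33297 rows, and at an unadjusted p under 0.05 then 5 to 7 of the 50 genes were higher and 2 to 4 lower, against 5.4% to 13.6% of all genes higher and 4.27% to 10.2% lower.

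**Figure D1:**
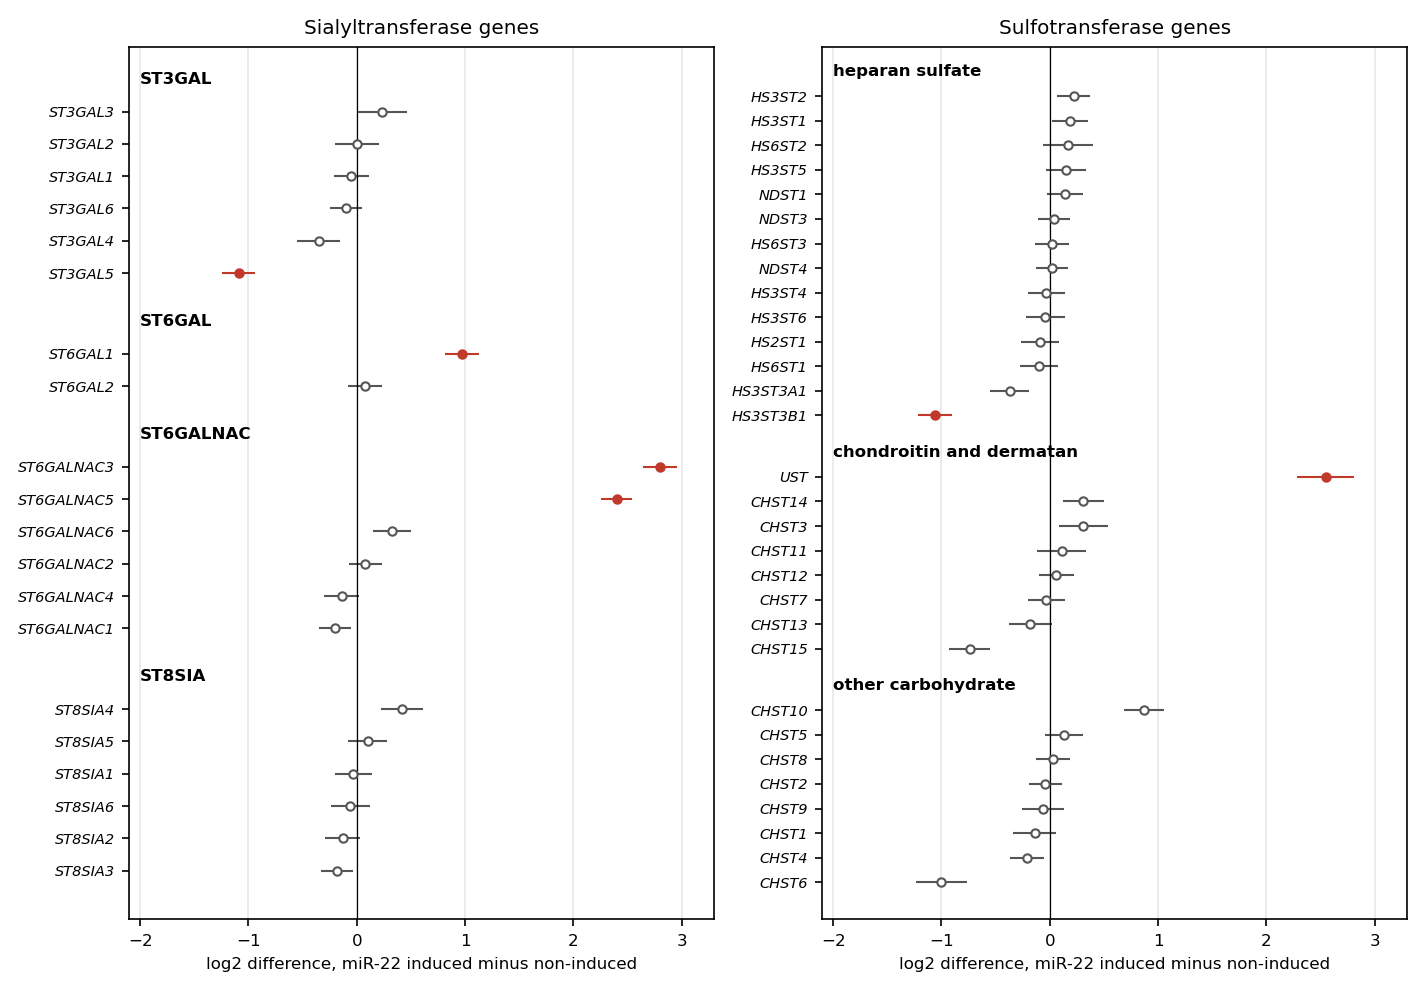
Log2 difference, induced minus non-induced miR-22 cells, for the 20 sialyltransferase genes (left) and 30 sulfotransferase genes (right), grouped by enzyme family; points are the fitted differences, bars the standard error, and filled red points passed a limma adjusted p under 0.05. ST6GALNAC3, ST6GALNAC5 and UST lie at 2.40 or above, and among the open points, which did not pass, CHST6 lies at -1.0, CHST10 at 0.87 and CHST15 at -0.74.

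ST6GALNAC3 encodes an alpha-2,6-sialyltransferase that adds sialic acid to N-acetylgalactosamine of already sialylated O-glycans and gangliosides. It read 7.38 and 7.58 in induced and 4.72 and 4.64 in non-induced miR-22 cells, and 4.98 in induced and 4.48 in non-induced NpBI-206AS cells. Both induced miR-22 arrays lay above all other arrays, with more than 2 log2 units between the nearest values. The rise was 6.96-fold (log2 difference 2.80, SE 0.158, adjusted p = 0.014), and without any 1 miR-22 array the difference stayed between 2.70 and 2.90.

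ST6GALNAC5 encodes an enzyme of the same subgroup, best known for making alpha-series gangliosides in brain. It read 7.32 and 7.40 in induced and 4.95 and 4.96 in non-induced miR-22 cells, and 4.55 in induced and 4.59 in non-induced NpBI-206AS cells. In this brightest row the 2 replicates of each miR-22 group nearly coincided, and the groups did not overlap. The rise was 5.29-fold (log2 difference 2.40, SE 0.147, adjusted p = 0.015). Each of these 2 genes has a second row on the array, which gave smaller but called differences of 2.41 for ST6GALNAC3 and 2.24 for ST6GALNAC5 (adjusted p = 0.015 each). In the second row of ST6GALNAC5 the non-induced miR-22 arrays lay further apart, at 4.84 and 4.62. Such rows are not independent measurements: the 2 rows of ST6GALNAC2 held the same values to 2 decimals on all 6 arrays.

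The other 4 ST6GALNAC genes did not pass. ST6GALNAC6, whose product sialylates gangliosides in many tissues, had the largest difference among them, 0.33 (SE 0.175, adjusted p = 0.36): it read 8.34 and 8.01 in induced and 7.84 and 7.85 in non-induced miR-22 cells. ST6GALNAC4 and ST6GALNAC2 differed by -0.14 and 0.08, and ST6GALNAC1, which makes the sialyl-Tn antigen on mucins, by -0.20 (adjusted p from 0.52 to 0.82). The family's rise thus rested on 2 of its 6 members.

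**Figure D2:**
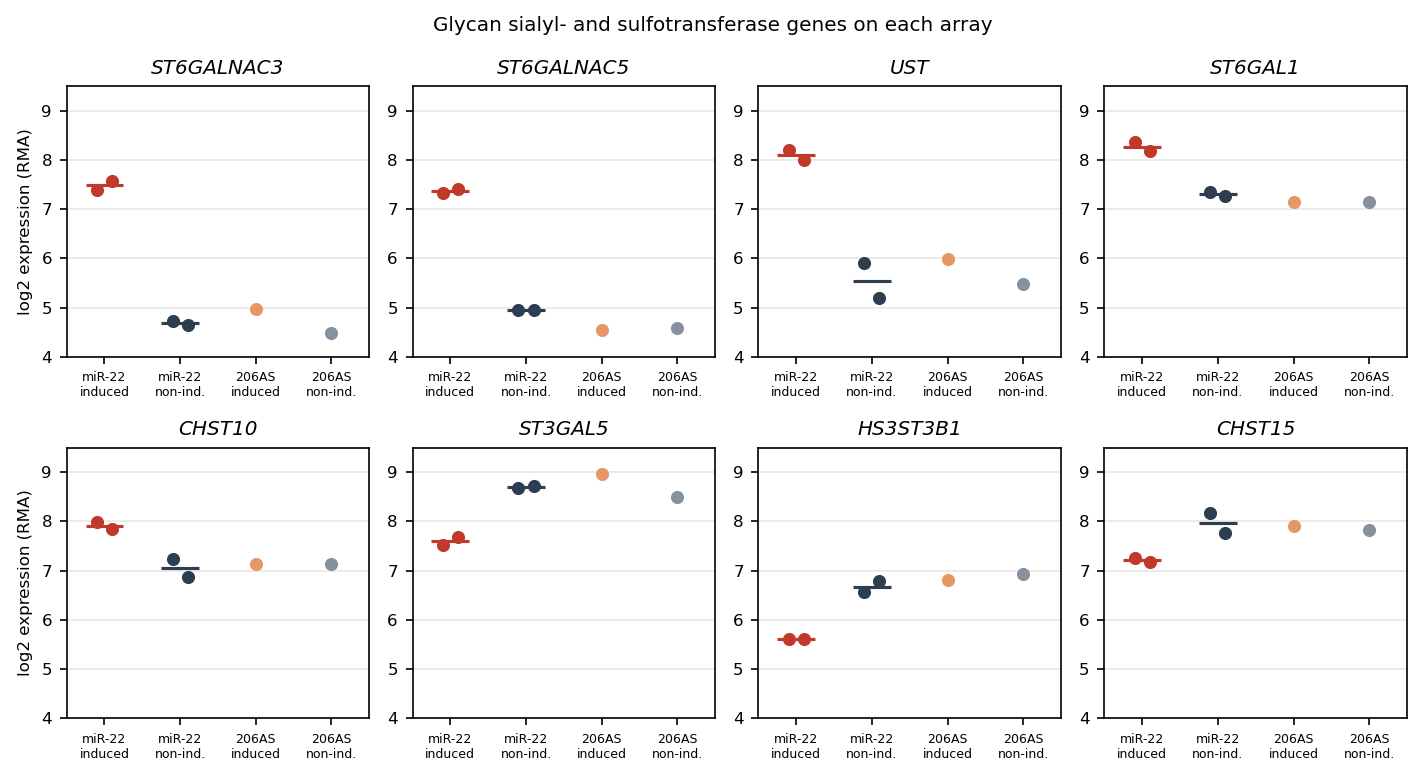
Log2 expression on each of the 6 arrays for the 8 genes called in the comparison of induced miR-22 arrays with the other 4 arrays; each point is 1 array and the bar is the mean of 2 replicates. The induced miR-22 arrays lie above all other arrays for ST6GALNAC3, ST6GALNAC5, UST, ST6GAL1 and CHST10, and below all others for ST3GAL5, HS3ST3B1 and CHST15.

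ST6GAL1 encodes the main enzyme that puts alpha-2,6-linked sialic acid on N-glycans. It read 8.37 and 8.17 in induced and 7.35 and 7.26 in non-induced miR-22 cells, and 7.15 in induced and 7.14 in non-induced NpBI-206AS cells. All 4 arrays without induced miR-22 lay close together and below both induced arrays. The rise was 1.95-fold (log2 difference 0.97, SE 0.158, adjusted p = 0.041). Its paralogue ST6GAL2 differed by 0.08 (adjusted p = 0.84).

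ST3GAL5, known as GM3 synthase, makes the first ganglioside of the pathway by sialylating lactosylceramide. It read 7.53 and 7.69 in induced and 8.68 and 8.71 in non-induced miR-22 cells, and 8.96 in induced and 8.49 in non-induced NpBI-206AS cells. Both induced miR-22 arrays were the lowest. It fell 2.12-fold (log2 difference -1.09, SE 0.152, adjusted p = 0.030). The other 5 ST3GAL genes did not pass. ST3GAL4, which caps N-glycans, differed by -0.35 (adjusted p = 0.38) and ST3GAL3 by 0.23 (adjusted p = 0.65); without non-induced replicate 2, which read 6.56 for ST3GAL3 against 7.16 in replicate 1, the difference of ST3GAL3 was -0.07. ST3GAL1, ST3GAL2 and ST3GAL6 lay between -0.10 and 0.00.

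None of the 6 ST8SIA genes passed over all rows, and none had an unadjusted p under 0.05. The polysialyltransferase gene ST8SIA4 had the largest difference, 0.42 (SE 0.191, adjusted p = 0.29): it read 9.92 and 10.19 in induced and 9.47 and 9.80 in non-induced miR-22 cells, and 9.80 in induced and 9.75 in non-induced NpBI-206AS cells. The induced miR-22 arrays were the highest, by a margin smaller than the gap between replicates. ST8SIA2, the other polysialyltransferase, differed by -0.13 (adjusted p = 0.72), ST8SIA3 by -0.18 and ST8SIA1, the GD3 synthase gene, by -0.03. ST8SIA3 and ST8SIA6 lay under the lower quartile on all 6 arrays and are not shown to be above background. The same held for ST3GAL6, NDST3, NDST4 and CHST9, which makes 6 of the 50 genes.

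UST encodes uronyl 2-sulfotransferase, which sulfates the uronic acid of chondroitin and dermatan sulfate. It read 8.20 and 7.99 in induced and 5.90 and 5.19 in non-induced miR-22 cells, and 5.98 in induced and 5.48 in non-induced NpBI-206AS cells. The 4 arrays without induced miR-22 spread more than those of the sialyltransferases above, but all lay at least 2 log2 units below the induced ones. The rise was 5.86-fold (log2 difference 2.55, SE 0.265, adjusted p = 0.020). Without any 1 miR-22 array it lay between 2.19 and 2.91.

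The other 7 chondroitin and dermatan sulfotransferase genes did not pass. CHST15, whose product adds a second sulfate to galactosamine, read 7.26 and 7.18 in induced and 8.17 and 7.76 in non-induced miR-22 cells, and 7.90 in induced and 7.83 in non-induced NpBI-206AS cells. It was lower on both induced miR-22 arrays than on any other, with a difference of -0.74 (SE 0.19, adjusted p = 0.097). CHST14, the dermatan 4-O-sulfotransferase gene, and CHST3, a chondroitin 6-O-sulfotransferase gene, differed by 0.31 each (adjusted p = 0.42 and 0.51). CHST11, CHST12, CHST13 and CHST7 lay between -0.18 and 0.11.

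Of the 14 heparan sulfate enzymes, 1 fell. HS3ST3B1 encodes a 3-O-sulfotransferase, an enzyme that places a rare heparan sulfate modification. It read 5.61 and 5.62 in induced and 6.57 and 6.78 in non-induced miR-22 cells, and 6.80 in induced and 6.94 in non-induced NpBI-206AS cells. The groups did not overlap, and the fall was 2.09-fold (log2 difference -1.06, SE 0.157, adjusted p = 0.034). Its close paralogue HS3ST3A1 read 7.04 and 6.73 in induced and 7.33 and 7.18 in non-induced miR-22 cells, a difference of -0.37 (adjusted p = 0.31). HS3ST2 differed by 0.22 (adjusted p = 0.47). The remaining 11, among them the N-sulfotransferase gene NDST1, the 2-O-sulfotransferase gene HS2ST1 and the 6-O-sulfotransferase genes HS6ST1, HS6ST2 and HS6ST3, lay between -0.10 and 0.19.

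Of 8 other carbohydrate sulfotransferases, none passed. CHST10 makes the HNK-1 epitope, a sulfated glucuronic acid on cell adhesion molecules. It read 7.99 and 7.84 in induced and 7.23 and 6.88 in non-induced miR-22 cells, and 7.13 in induced and 7.14 in non-induced NpBI-206AS cells. The groups did not overlap, with a difference of 0.87 (SE 0.183, adjusted p = 0.066). CHST6, which sulfates keratan sulfate in the cornea, read 5.76 and 5.29 in induced and 6.73 and 6.32 in non-induced miR-22 cells, and 5.93 in induced and 6.41 in non-induced NpBI-206AS cells, a difference of -1.0 between the miR-22 groups (SE 0.236, adjusted p = 0.082). CHST4 differed by -0.21 (adjusted p = 0.54), and the remaining 5 lay between -0.14 and 0.13.

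The NpBI-206AS arrays add a second set of controls. Between any 2 of the 4 arrays without induced miR-22, 0 of the 50 genes were 2-fold or more apart, and between the 2 induced miR-22 arrays also 0. Between an induced miR-22 array and any other array, 4 to 7 were. The same counts were not made over all genes, so they are not shown to be particular to these genes. Over all rows, Pearson correlations of induced miR-22 arrays with the others were 0.9748 to 0.9805, against 0.9836 to 0.9948 among the other 4. When the 2 induced miR-22 arrays were set against the other 4, limma called 5 of the 50 genes higher and 3 lower, while 7.78% of all genes were higher and 6.31% lower. These were the 6 genes above with CHST10, higher by 0.82 (SE 0.134, adjusted p = 0.0084), and CHST15, lower with a difference of -0.69 (SE 0.141, adjusted p = 0.019). The differences were 2.78 for ST6GALNAC3, 2.60 for ST6GALNAC5, 2.46 for UST and 1.05 for ST6GAL1 (adjusted p from 0.00045 to 0.0028), and -1.10 for ST3GAL5 and -1.16 for HS3ST3B1 (adjusted p = 0.0046 and 0.0026). Without any 1 miR-22 array, the calls of ST6GALNAC3, ST6GALNAC5, UST, ST6GAL1 and HS3ST3B1 held. Without induced replicate 1, ST3GAL5 was at an adjusted p of 0.060, CHST10 at 0.089 and CHST15 at 0.11, and without induced replicate 2 CHST10 was at 0.051 and CHST15 at 0.12.

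Counting arrays, both induced miR-22 arrays lay above both non-induced miR-22 arrays for 11 of the 50 genes and below them for 11, against 27.9% and 24.5% of all genes. Both induced miR-22 arrays lay above the other 4 for 11 of the 50 genes and below them for 6. Over all genes these shares were 22.1% and 17.2%. The counts are thus not above the share of all genes, and some of these differences were small: NDST4 is among the 11 with a difference of 0.02 between the miR-22 groups, at a level under the lower quartile.

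Both sides had doxycycline when induced miR-22 cells were set against the induced NpBI-206AS array. Limma called 2 of the 50 genes, ST6GALNAC3 higher by 2.50 (SE 0.193) and ST6GALNAC5 higher by 2.80 (SE 0.179, adjusted p = 0.035 each). Without either induced miR-22 replicate the differences were 2.40 to 2.60 and 2.76 to 2.85, and both calls were lost (adjusted p from 0.53 to 0.62); without either non-induced replicate the adjusted p was 0.15. Over all genes 0.168% were higher and 0.076% lower in this comparison. UST was higher by 2.12 (adjusted p = 0.074) and ST6GAL1 by 1.13 (adjusted p = 0.086), while ST3GAL5 had a difference of -1.34 (adjusted p = 0.065) and HS3ST3B1 of -1.18 (adjusted p = 0.077). The control side is 1 array, assumed to vary like the miR-22 replicates. This comparison and those above share the induced miR-22 arrays.

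Within NpBI-206AS cells there is 1 array per condition and no test. None of the 50 genes was 2-fold apart, against 0.0434% of all genes at least 2-fold higher and 0.0652% at least 2-fold lower, and the differences ran from -0.49 (CHST6) to 0.51 (ST6GALNAC3). UST was 0.50 higher and ST3GAL5 0.47 higher on the induced array, while ST6GALNAC5, ST6GAL1 and CHST10 differed by -0.04, 0.01 and 0.00. The response of miR-22 cells minus that of NpBI-206AS cells was 2.29 for ST6GALNAC3 (SE 0.274), 2.44 for ST6GALNAC5 (SE 0.254), 2.05 for UST (SE 0.459), 0.96 for ST6GAL1 (SE 0.274), -0.92 for HS3ST3B1 (SE 0.272) and -1.55 for ST3GAL5 (SE 0.264). None of these passed (limma adjusted p from 0.18 to 0.46). In this test limma called 0 of 50 genes and 0% of all genes, and without adjustment 5 of the 50 were higher and 2 lower (p under 0.05), against 4.76% and 3.26% of all genes.

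**Figure D3:**
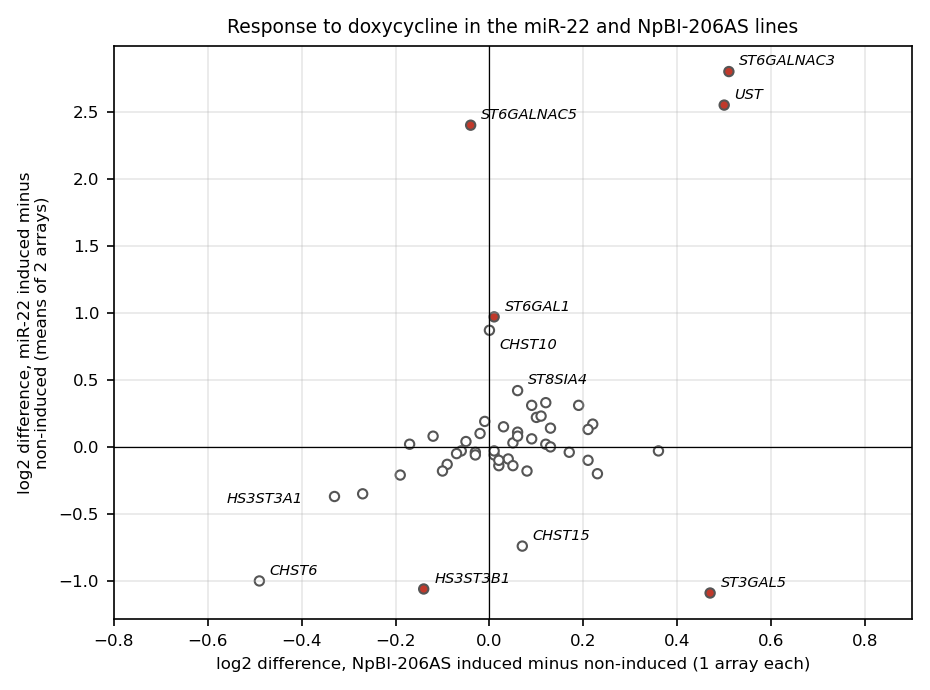
Log2 difference, induced minus non-induced miR-22 cells, (vertical axis, means of 2 arrays) against that between the induced and the non-induced NpBI-206AS array (horizontal axis, 1 array each) for the 50 genes; filled red points passed in miR-22 cells. The horizontal range is -0.49 to 0.51, while ST6GALNAC3, UST and ST6GALNAC5 stand at 2.80, 2.55 and 2.40 on the vertical axis, and ST3GAL5 lies on opposite sides of 0 in the 2 lines.

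The positions of the genes bear on ST6GALNAC3 and ST6GALNAC5. The RefSeq gene table of GRCh38.p14 places them side by side on chromosome 1, with 0 protein-coding genes between them. The array's build is not given in the sources used here, so only gene order was used. Of the 5 nearest measured protein-coding genes on each outer side, 10 in all, limma called 0 higher and 0 lower, with 3 at an unadjusted p under 0.05. Unadjusted, 12.1% of all genes were higher and 9.12% lower. Their differences ran from -0.13 (ACADM) to 0.51 (MIGA1), with adjusted p of 0.18 or more. PIGK, the neighbour next to ST6GALNAC5, differed by 0.12 (adjusted p = 0.86), and ASB17, next to ST6GALNAC3, by 0.41 (adjusted p = 0.21) at levels of 2.04 to 2.56 that lie under the lower quartile. When the 2 induced miR-22 arrays were set against the other 4, 2 of these neighbours passed, MIGA1 (0.57, adjusted p = 0.039) and SLC44A5 (0.44, adjusted p = 0.031). Of all genes, 7.78% were higher and 6.31% lower in that comparison.

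UST lies on chromosome 6. Of its 10 nearest measured neighbours limma called 0, with 1 at an unadjusted p under 0.05, and 1 passed against the other 4 arrays, RAB32 (0.75, adjusted p = 0.023). The shares of all genes were 12.1% higher and 9.12% lower unadjusted, and 7.78% and 6.31% against the other 4 arrays. In miR-22 cells the differences ran from -0.55 (STXBP5) to 0.72 (RAB32, adjusted p = 0.14); the genes next to it, SASH1 and TAB2, differed by -0.18 and 0.00.

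**Figure D4:**
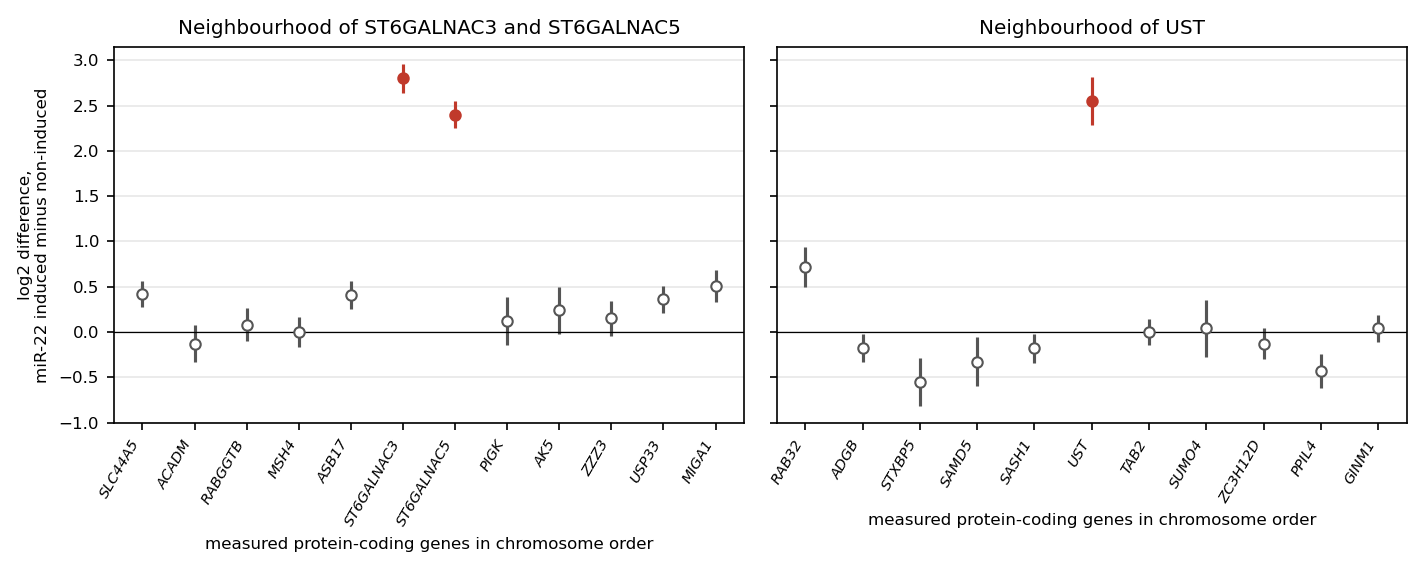
Log2 difference, induced minus non-induced miR-22 cells, for ST6GALNAC3 and ST6GALNAC5 (left) and UST (right) and the 5 nearest measured protein-coding genes on each side, in chromosome order; bars are standard errors. The filled points of the 3 genes lie at 2.40 or above, and their neighbours between -0.55 and 0.72.

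Of the 50 genes, 12 form 6 pairs with at most 2 protein-coding genes between their members. ST6GALNAC3 and ST6GALNAC5 were the pair in which both genes passed. HS3ST3A1 and HS3ST3B1, on chromosome 17, both had negative differences (-0.37 and -1.06), of which 1 passed. CHST6 and CHST5, adjacent on chromosome 16, had differences of -1.0 and 0.13. The pairs ST6GALNAC2 with ST6GALNAC1, ST6GALNAC6 with ST6GALNAC4 and NDST4 with NDST3 had no member that passed.

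Genes that supply, extend, carry or trim the same glycans were read beside the transferases. No gene of sialic acid supply and turnover passed (0 of 12), the list that holds CMAS, GNE and the neuraminidases. The largest difference was -0.66 for NPL, the sialic acid lyase gene (adjusted p = 0.13). NPL was lower against the other 4 arrays (-0.69, adjusted p = 0.038), as were 6.31% of all genes. None of 7 genes that supply activated sulfate passed either, with a largest difference of 0.33 for BPNT1 (adjusted p = 0.37), and none of 6 galactose and tyrosine sulfotransferases (TPST1, -0.19, adjusted p = 0.55). At an unadjusted p under 0.05 these 3 lists had 1 gene higher and 2 lower, all in the first, while 12.1% of all genes were higher and 9.12% lower.

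In glycosaminoglycan chain synthesis, 3 of 24 genes rose and 1 fell, against 1.73% and 1.53% of all genes. EXT1, a subunit of the heparan sulfate polymerase, read 9.70 and 9.69 in induced and 8.40 and 8.63 in non-induced miR-22 cells, and 8.66 in induced and 8.69 in non-induced NpBI-206AS cells. It rose by 1.18 (SE 0.16, adjusted p = 0.028). GLCE, the epimerase of heparan sulfate, rose by 0.92 (adjusted p = 0.040), and CHSY3, a chondroitin synthase gene, by 0.84 (adjusted p = 0.045), with its non-induced miR-22 arrays at 3.58 and 3.59, under the lower quartile. DSE, the epimerase that turns chondroitin into dermatan sulfate, read 8.17 and 8.44 in induced and 9.58 and 9.66 in non-induced miR-22 cells, and 9.62 in induced and 9.63 in non-induced NpBI-206AS cells. It fell by 1.32 (SE 0.167, adjusted p = 0.026). UST and DSE, which act on the same chain, thus moved in opposite directions.

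Of 27 proteoglycan core genes 1 rose and 0 fell, against 1.73% and 1.53% of all genes. GPC4, a glypican that carries heparan sulfate, read 5.93 and 5.73 in induced and 4.28 and 4.40 in non-induced miR-22 cells, and 3.87 in induced and 4.13 in non-induced NpBI-206AS cells. The rise was 2.81-fold (log2 difference 1.49, SE 0.16, adjusted p = 0.021). GPC4 was also higher by 1.96 against the induced NpBI-206AS array, which is 1 array and where 3.87 lay under the lower quartile of 3.95. None of 10 glycan sulfatase genes passed. SULF1, which removes 6-O-sulfate from heparan sulfate outside the cell, had the largest difference of that list, 0.82 (adjusted p = 0.13). Set against the other 4 arrays, the induced miR-22 arrays were higher for SULF1 (0.80, adjusted p = 0.027) and its paralogue SULF2 (0.88, adjusted p = 0.011). Of all genes, 7.78% were higher there.

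Of 7 ganglioside synthesis genes none passed. B4GALNT1, which makes GM2 and GD2 downstream of ST3GAL5, had the largest difference, -0.87 (SE 0.179, adjusted p = 0.063): it read 7.17 and 6.82 in induced and 7.89 and 7.85 in non-induced miR-22 cells, and 7.73 in induced and 8.01 in non-induced NpBI-206AS cells. Against the other 4 arrays B4GALNT1 was lower (-0.87, adjusted p = 0.0085), as were 6.31% of all genes. Among 18 genes of mucin-type O-glycan core synthesis, 1 rose, GALNT13, by 1.12 (adjusted p = 0.040), against 1.73% of all genes. Of 3 carriers of polysialic acid 1 fell, NRP2, a semaphorin co-receptor, by 1.6 (adjusted p = 0.019), against 1.53% of all genes. NRP2 was also 1.17 lower on the induced than on the non-induced NpBI-206AS array. NCAM1 differed by 0.39 (adjusted p = 0.31).

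**Figure D5:**
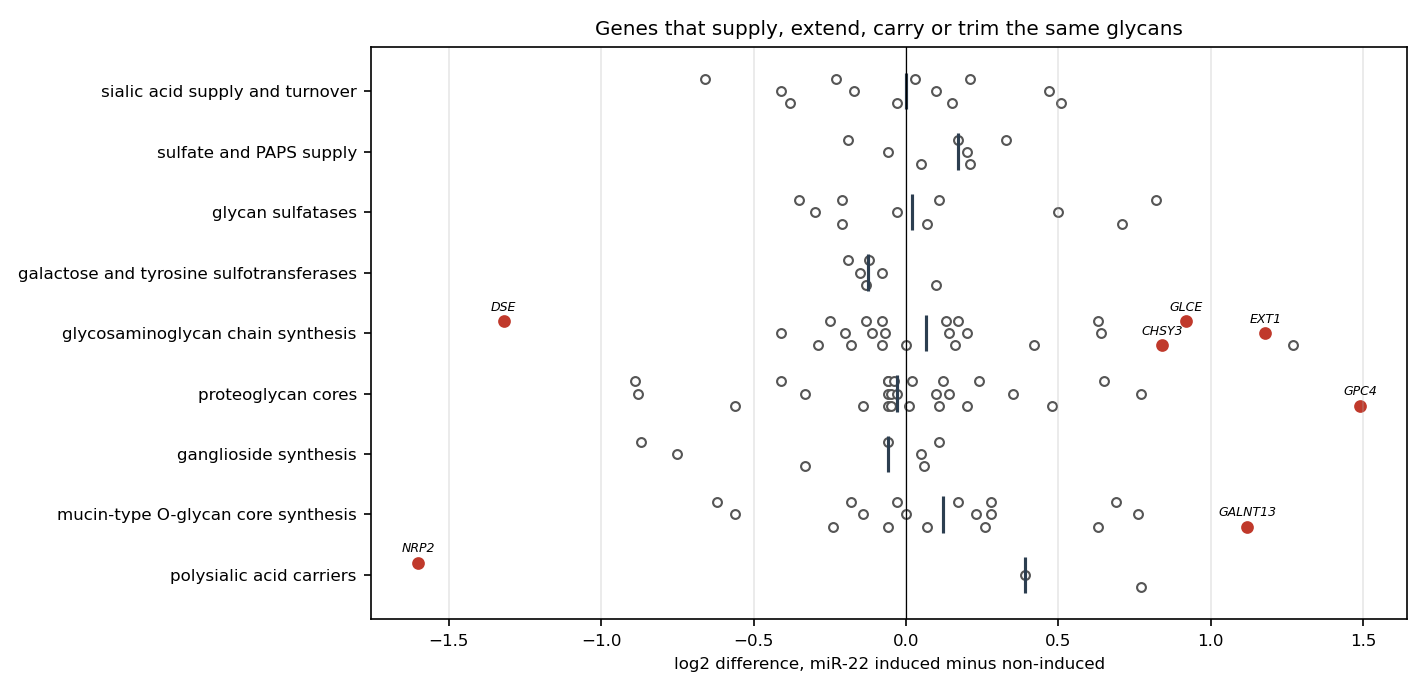
Log2 difference, induced minus non-induced miR-22 cells, for the genes of 9 lists of related glycan genes; each circle is a gene, the vertical bar the list's median, and filled red circles passed a limma adjusted p under 0.05. The 7 filled genes are EXT1, GLCE, CHSY3, GPC4 and GALNT13 on the higher side and DSE and NRP2 on the lower.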

How the data were processed

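Each of the 6 RD18 cultures gave 1 array. The table the authors deposited holds log2 expression, and the submitters' processing notes name RMA and Partek without versions. RMA makes the distributions of the arrays alike, which hides any shift common to all genes. The genome build is not given in the sources used here, and scanner files were not analysed here. Array medians lay between 5.66 and 5.75; the number of arrays limits the precision. Of 33297 rows, 19460 carried a single gene symbol in the platform annotation (1754 several, 12083 none), updated by gene ID through the RefSeq table of GRCh38.p14 (19429 matched); 8 of the 50 genes had more than 1 row.

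Groups came from the sample titles. The deposited log2 values were tested in R 4.3.3 by limma 3.58.1, fitting a mean per group over all 6 arrays (2 residual and 3.62 prior degrees of freedom), or a mean for the induced miR-22 pair and another for the remaining 4, two-sided. P-values were adjusted by the Benjamini-Hochberg method across the whole table, and 0.05 was the threshold. The code was tested on simulated data. The genes and lists were chosen with earlier results of these data known. Named genes were those that passed in any comparison, the 3 largest differences per enzyme class, from each related list those that passed (up to 4) or else the largest difference, and the chromosomal neighbours; the remaining genes named were chosen after their values were seen. Alternatives were the replicate block, the miR-22 arrays alone, median centring, a second quantile normalization, cyclic loess, a filter on dim rows, averaged rows, a variance trend and leaving out each miR-22 array. The numbers of the replicates are not stated to pair the samples.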

Additional observations from a re-analysis of the deposited data

Results flagged for a closer look

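Among 73 of the genes named in the text, 24 had both induced miR-22 arrays on one side of both non-induced ones. In these 24 the single induced NpBI-206AS array lay on the other side of its non-induced one. This was 32.9% of the 73 against 25.5% of all genes, and each NpBI-206AS direction rests on 1 array per condition. Many of the 73 were picked for their difference between the miR-22 groups. Among genes whose miR-22 groups did not overlap, the share was 50% of those named and 48.7% of all genes. In the test of the difference between the responses none of the 24 passed (limma adjusted p from 0.18 to 0.93).

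Of the 50 transferase genes, 9 (18%) were among them, against 25.5% of all genes. ST3GAL5 differed by -1.09 in miR-22 cells and by 0.47 in NpBI-206AS cells (difference between the responses -1.55, SE 0.264, adjusted p = 0.28). ST6GALNAC5 differed by 2.40 in miR-22 cells and by -0.04 in NpBI-206AS cells (difference between the responses 2.44, adjusted p = 0.18). CHST15 differed by -0.74 and CHST10 by 0.87 in miR-22 cells, with 0.07 and -0.002 in NpBI-206AS cells. The differences in miR-22 cells were small for ST6GALNAC1 (-0.20), ST6GALNAC4 (-0.14), ST3GAL6 (-0.10), ST6GALNAC2 (0.08) and NDST4 (0.02).

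Of the related glycan genes, GPC4 differed by 1.49 in miR-22 cells and by -0.26 in NpBI-206AS cells, and GALNT13 by 1.12 and -0.25. EXT1 (1.18 in miR-22 cells), CHSY3 (0.84), SULF2 (0.71), BPNT1 (0.33) and TPST1 (-0.19) showed the same arrangement. So did MIR22HG (3.53), the muscle gene DES (-1.07) and the chromosomal neighbours RAB32 (0.72), MIGA1 (0.51), SLC44A5 (0.42), ASB17 (0.41), SASH1 (-0.18) and STXBP5 (-0.55).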

How the results depend on the processing

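The counts of 4 risen and 2 fallen genes in miR-22 cells were the same with median centring, a second quantile normalization, cyclic loess, averaged rows, a variance trend and the miR-22 arrays alone. The filter on dim rows used the mean of all 6 arrays, so induced values counted towards passing it. UST averaged 5.64 on the 4 arrays without induced miR-22, whose medians were 5.71 to 5.75, so its results after this filter are no added support. Without the dimmest 50 percent of rows, which removes ST6GALNAC3 and ST6GALNAC5, 27 of the 50 genes were tested. In the main comparison 3 were higher and 4 lower, now with CHST10 (limma adjusted p = 0.026), CHST6 (0.029) and CHST15 (0.044). Against the other 4 arrays 3 were higher and 4 lower. For this comparison and the next, the share of all rows called after the filter was not counted. These counts are thus not shown to be particular to these genes. Against the induced NpBI-206AS array UST (0.018) and ST6GAL1 (0.033) were higher, and ST3GAL5 (0.021) and HS3ST3B1 (0.029) lower. The main comparison then called 2611 of 16649 rows, against 1200 of 33297 unfiltered. With any 1 miR-22 array left out 0 genes were higher and 0 lower in the main comparison, 0 passed against the induced NpBI-206AS array, and each related list had 0 called genes. Against the other arrays without induced miR-22, 11 of the 50 genes passed without non-induced replicate 1 and 8 without non-induced replicate 2. Fewer passed without either induced replicate. The share of all genes was not counted in these settings, so the counts are not shown to be particular to these genes. Signs were followed through the settings for members that passed in any comparison and the 3 largest differences per enzyme class. Among these the sign reversed in 2 settings, both with a single miR-22 array left out. ST6GAL2 ranged from -0.02 (without non-induced replicate 1) to 0.17 (without non-induced replicate 2). ST3GAL3 ranged from -0.07 (without non-induced replicate 2) to 0.53 (without non-induced replicate 1). Other members with small differences also changed sign, among them CHST11 (-0.13 to 0.35), HS6ST2 (-0.14 to 0.48), ST3GAL2 (-0.22 to 0.22), HS2ST1 (-0.25 to 0.07) and ST8SIA1 (-0.17 to 0.12). The replicate numbers are not known to pair the samples; deviations of same-numbered arrays from their group means correlated at 0.196 over all rows. With the replicate block 8 of the 50 genes passed, the 6 above with CHST10 (0.87, adjusted p = 0.033) and CHST6 (-1.0, adjusted p = 0.022), and 2955 rows in place of 1200. No detection calls were used here, so low values are read only against the lower quartile.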
